A study of Mus musculus with 6 samples.

Results

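Tnnt2, Mb, Actc1, Myh6, Tnni3, Myl2, Myl3, Tnnc1, Nppa and Ttn are 10 genes that mark heart muscle cells, and they were followed by symbol through the 50600 genes of the counts table. All 10 were among the 13475 protein-coding genes that passed the filter on low counts. RNA was sequenced from the cardiac side population (SP), the heart cells that pump out a DNA-binding dye, in 3 libraries from wt mice of the C57BL/6NRj strain and 3 labelled flt3L-/-, from C57BL/6Flt3Ltml/mx mice on a C57BL/6N background, which carry an inherited disruption of the gene of Flt3 ligand, a cytokine for blood progenitors. The mice were 8 to 12 weeks old, and each library held the sorted cells of 4 mice. The heart suspensions had been depleted of cardiomyocytes and red cells before the dye gate, so the 10 genes belong to a cell type that the preparation was meant to leave out. On each of 3 sorting days 1 wt and 1 flt3L-/- pool was sorted, and these pairs are numbered 1, 2 and 3 by date.

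The 10 genes build and serve the sarcomere, the contractile unit of striated muscle, in which myosin thick filaments pull on actin thin filaments. Calcium that binds troponin on the thin filament lets myosin reach actin, titin holds the thick filament in place as a molecular spring, and myoglobin holds oxygen for the mitochondria that supply the energy. In the heart, Myh6, Myl2, Myl3, Actc1, Tnnt2, Tnni3 and Tnnc1 are the cardiac forms of proteins that other muscles or other ages make from related genes, and Nppa encodes a hormone that is mostly made in the atria.

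Levels are TMM-scaled CPM, the counts of a gene relative to the library's total over the genes that passed the filter, times its TMM factor. A positive log2 fold change means a higher level in the libraries labelled flt3L-/- than in wt. It comes from edgeR's quasi-likelihood fit, in which the sorting date was also a term. Total counts over all genes lay between 24370913 and 31145519 per library. On the CPM scale used here a floor of 3 counts equals 0.109 to 0.127 CPM. That floor covers counting error alone, since reads carried no molecular identifiers. The p-values measure the spread between these pools of mice. Flt3l, the targeted gene, had 8.67, 10.8 and 12.1 CPM in the wt pools of pairs 1, 2 and 3 and 13.6, 12.4 and 14.4 CPM in their partners, a log2 fold change of 0.37 (SE 0.20, adjusted p = 0.973 by the quasi-likelihood test of edgeR). Its reads were therefore not fewer in the libraries labelled flt3L-/-, and the counts do not separate the altered stretch of the gene from the rest. The wt library of pair 1 stood apart for the 10 genes, with the lowest value of each. Each log2 fold change of the 10 genes that moved by over 1.5 times without pair 1 is given with its value without it. That of Flt3l was 0.23 without pair 1. Single genes of the other lists are given with all pairs only, so how far they depend on pair 1 is not shown.

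RNA of the 10 genes was found in every library and made up a small share of it. Their summed counts were 3744, 5897 and 5638 in the wt libraries of pairs 1, 2 and 3 and 6765, 6400 and 5793 in the libraries labelled flt3L-/-, which is 0.0134% to 0.0263% of all counts. Markers of other heart cells that the gate can hold were read in the same way. The 10 genes summed to 145.6 to 272 CPM by library, the sum of 8 endothelial markers was 8048 to 12573 CPM and that of 7 fibroblast markers was 9737 to 41599 CPM. The 12 skeletal muscle markers, which include fast myosins and fast troponins, summed to 10.7 to 14.1 CPM, and Myod1 of that list had no read in any library. Since these are bulk samples, fewer cells of a type and less RNA per cell cannot be told apart.

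In reads per kilobase of exon, myoglobin led and titin came last. How evenly reads covered each transcript was not tested. The order of RNA molecules can therefore differ, most of all for long genes such as Ttn (116825 exon bases). Mb stood at 26.0 CPM per kb on average, followed by Actc1 (18.2), Tnni3 (14.1), Tnnc1 (10.3), Myl2 (9.37), Myl3 (8.59), Tnnt2 (6.53), Myh6 (2.82), Nppa (1.33) and Ttn (0.063), each as the mean CPM per kb of the union of annotated exons over 6 libraries. Mb ranked first and Ttn last in 6 of 6 libraries. The order was not fixed between Actc1 and Tnni3 (Actc1 higher in 5 of 6 libraries), between Tnnc1 and Myl2 (5 of 6) and between Myl2 and Myl3 (4 of 6), while every other neighbour kept its place in 6 of 6. The mean log2 ratio was 0.33 with an SD of 0.32 for Actc1 over Tnni3, 0.14 with an SD of 0.21 for Tnnc1 over Myl2 and 0.11 with an SD of 0.28 for Myl2 over Myl3, so the last pair and Tnnc1 with Myl2 did not differ beyond their spread. Divided by the longest annotated transcript in place of all exons, Tnni3 rose from rank 3 to rank 2 with 32.0 CPM per kb and Myl2 from rank 5 to rank 3 with 20.5 CPM per kb, ahead of Actc1 with 20.0. Among the 13475 tested genes, Mb lay between the 77.2nd and the 89.1st percentile of CPM per kb by library, and Nppa between the 9.70th and the 35.2nd.

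**Figure D1:**
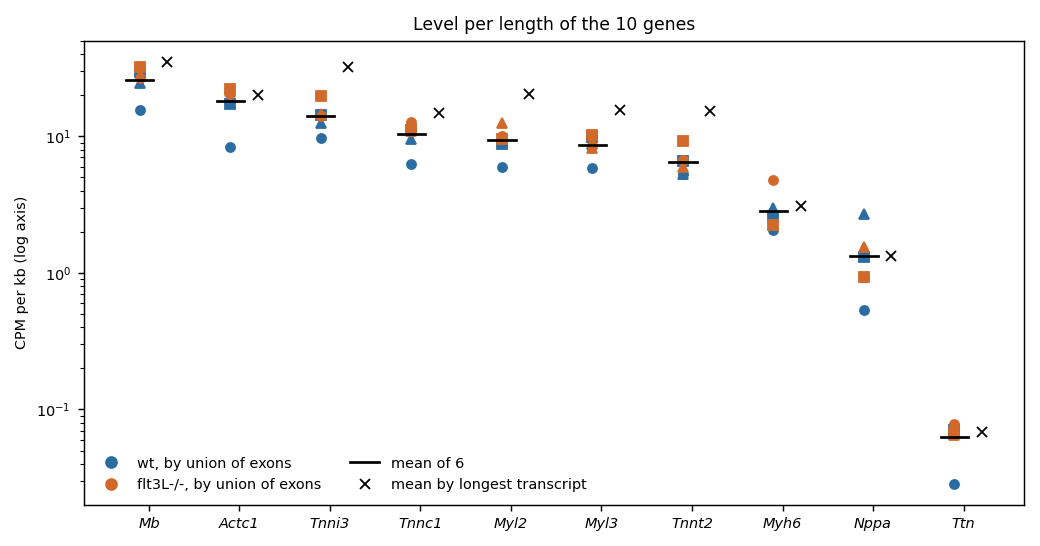
Level per length of the 10 genes in the 6 libraries, as CPM per kb of the union of exons on a log axis, with wt in blue, flt3L-/- in orange, circles, squares and triangles for pairs 1, 2 and 3, a black bar for the mean and a cross for the mean by the longest transcript. Levels fall from 26.0 for Mb to 0.063 for Ttn, and the blue circle of wt pair 1 is the lowest point of each gene.

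None of the 10 genes passed the test for a difference between the groups. At an adjusted p under 0.05, 0 of the 10 were called by edgeR, against 0% of all genes tested, and 0 by DESeq2. At an unadjusted p under 0.05, 1 of the 10 was higher (Tnni3), against 3.59% of all genes in either direction. The log2 fold change was above 0 for 9 genes and below 0 for Nppa, with a median of 0.38, where the median over all genes tested was -0.00027. In edgeR's quasi-likelihood test the adjusted p was 0.973 for 8 genes, 0.977 for Myh6 and 0.979 for Nppa. Within pairs, 6 genes (Tnnt2, Mb, Actc1, Tnni3, Myl2 and Tnnc1) were higher in the library labelled flt3L-/- in each of 3 pairs, against 14.2% of all genes, and 0 were lower in each, against 11.5%. For 2 genes, Actc1 and Myl2, every library labelled flt3L-/- lay above every wt library, against 3.53% of all genes. The 10 genes share the same 6 libraries and mark 1 cell type, so these counts are not 10 separate observations. The median difference of the 10 genes was 0.75 on the log2 scale in pair 1, 0.078 in pair 2 and 0.17 in pair 3.

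**Figure D2:**
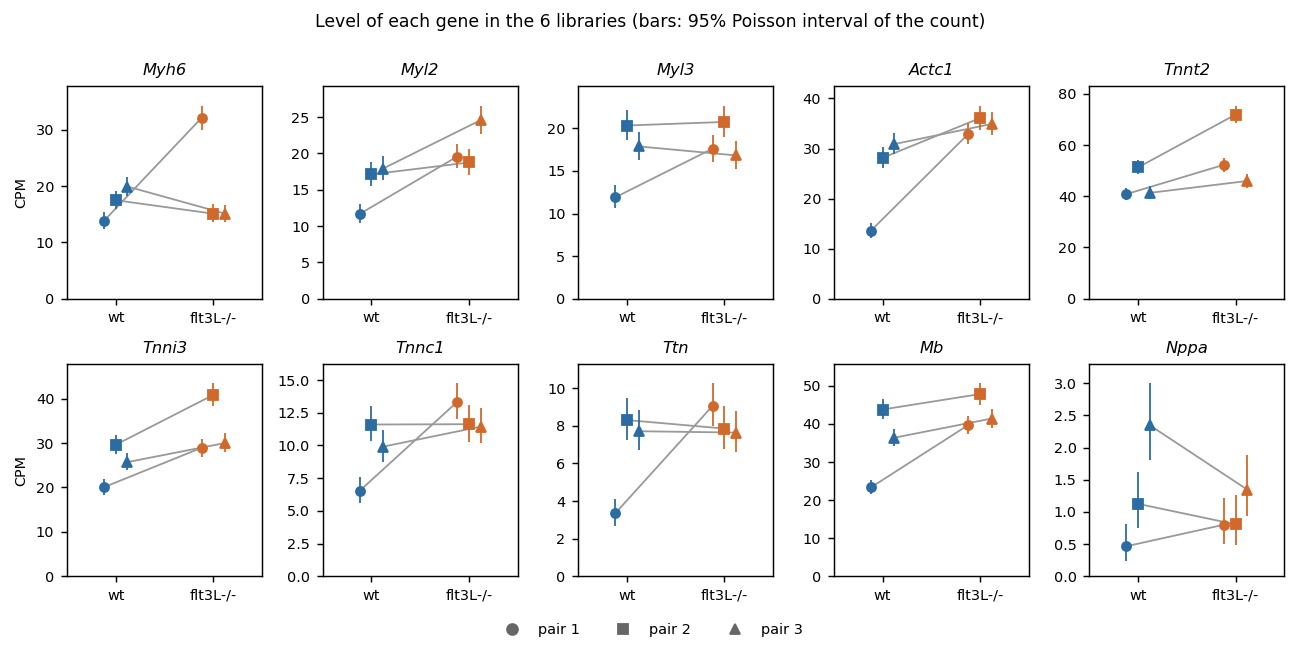
CPM of each of the 10 genes in the 3 wt libraries (blue) and the 3 libraries labelled flt3L-/- (orange), with grey lines joining the libraries of a sorting date and bars for the 95% Poisson interval of the count. The wt library of pair 1 is the lowest of the 6 in each panel, and only for Actc1 and Myl2 do the groups not overlap.

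The thick filament genes are the myosin motor Myh6 and the light chains Myl2 and Myl3, which clasp the neck of the motor. In pairs 1, 2 and 3, Myh6 (ENSMUSG00000040752, GRCm38 chr14:54941921-54966927, minus strand) had 13.8, 17.5 and 19.9 CPM in the wt pools and 32.1, 15.1 and 15.1 CPM in those labelled flt3L-/-. The flt3L-/- library of pair 1 stood alone at the top, and the other two libraries of that group lay inside the wt range. The log2 fold change of Myh6 was 0.19 (SE 0.37), made up of differences of 1.21, -0.21 and -0.40 in the 3 pairs, and without pair 1 it was -0.31.

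Myl2 (ENSMUSG00000013936, chr5:122100951-122113472, plus strand), the regulatory light chain of the ventricle, had 11.7, 17.1 and 17.9 CPM in the wt pools and 19.6, 18.8 and 24.6 CPM in those labelled flt3L-/-. The highest wt value and the lowest flt3L-/- value were close, at 17.9 and 18.8 CPM, although the groups did not overlap. Its log2 fold change was 0.44 (SE 0.19, unadjusted p = 0.0650 in edgeR's quasi-likelihood test), or 0.29 without pair 1. Myl3 (ENSMUSG00000059741, chr9:110741861-110769798, plus strand), the essential light chain of the ventricle and of slow muscle, had 11.9, 20.3 and 17.9 CPM in the wt pools and 17.6, 20.8 and 16.8 CPM in their partners. Apart from wt pair 1 these values were alike in both groups, and the log2 fold change of Myl3 was 0.17 (SE 0.20), or -0.030 without pair 1.

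The thin filament genes are the actin Actc1 and the 3 subunits of cardiac troponin, of which Tnnt2 ties the complex to tropomyosin, Tnni3 inhibits contraction and Tnnc1 binds calcium. Actc1 (ENSMUSG00000068614, chr2:114047282-114053548, minus strand) had 13.6, 28.1 and 30.9 CPM in the wt pools and 32.9, 36.1 and 34.9 CPM in those labelled flt3L-/-. Its wt values were the more spread, at 24.2 ± 9.30 CPM (SD, n = 3) against 34.6 ± 1.59 CPM (SD, n = 3). At 0.60 (SE 0.26, unadjusted p = 0.0726 in edgeR's quasi-likelihood test), Actc1 had the largest log2 fold change of the 10 genes when all pairs were used, with differences of 1.27, 0.36 and 0.18 in pairs 1, 2 and 3. Without pair 1 it was 0.27, below Tnni3 (0.34), Tnnt2 (0.32) and Myl2 (0.29).

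Troponin T and troponin I were both highest in the flt3L-/- library of pair 2. For Tnnt2 (ENSMUSG00000026414, chr1:135836354-135852260, plus strand) the wt libraries of pairs 1, 2 and 3 gave 40.9, 51.3 and 41.3 CPM and those labelled flt3L-/- gave 52.3, 71.9 and 46.0 CPM. For Tnni3 (ENSMUSG00000035458, chr7:4518305-4524229, minus strand) they gave 20.1, 29.6 and 25.7 CPM and 28.9, 40.8 and 30.0 CPM. In both genes the groups overlapped, because wt pair 2 lay above at least 1 library labelled flt3L-/-. The log2 fold changes were 0.33 (SE 0.14) for Tnnt2 and 0.40 (SE 0.15) for Tnni3, and the within-pair differences of Tnni3 were 0.53, 0.46 and 0.22. Tnni3 had the smallest unadjusted p of the 10 genes (0.0429 in edgeR's quasi-likelihood test), and it missed 0.05 when any 1 pair was left out.

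Tnnc1 (ENSMUSG00000091898, chr14:31208312-31211729, plus strand) had 6.53, 11.6 and 9.91 CPM in the wt pools and 13.3, 11.6 and 11.4 CPM in those labelled flt3L-/-. The 2 libraries of pair 2 were level, with a difference of 0.0032 on the log2 scale, while pair 1 differed by 1.02. Its log2 fold change was 0.41 (SE 0.28) with all pairs and 0.10 without pair 1.

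Titin, myoglobin and the atrial hormone complete the group. Ttn (ENSMUSG00000051747, chr2:76703980-76982547, minus strand) had 3.34, 8.30 and 7.71 CPM in the wt pools and 9.07, 7.85 and 7.64 CPM in those labelled flt3L-/-. Outside wt pair 1 the 5 values of Ttn spanned only 7.64 to 9.07 CPM, and its log2 fold change of 0.43 (SE 0.39) became -0.048 without pair 1. Mb (ENSMUSG00000018893, chr15:77015487-77050670, minus strand) had 23.3, 43.8 and 36.4 CPM in the wt pools and 39.7, 47.9 and 41.4 CPM in their partners. The library labelled flt3L-/- was the higher in each pair of Mb, by 0.77, 0.13 and 0.19 on the log2 scale, for a log2 fold change of 0.36 (SE 0.19) that fell to 0.16 without pair 1.

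Nppa (ENSMUSG00000041616, chr4:148000722-148002079, plus strand) had the fewest counts of the 10 and was the 1 gene with a lower mean in the libraries labelled flt3L-/-. It had 12, 29 and 63 counts in the wt libraries of pairs 1, 2 and 3, or 0.467, 1.13 and 2.35 CPM, and 22, 19 and 34 counts in the libraries labelled flt3L-/-, or 0.801, 0.806 and 1.35 CPM. The wt group held both the lowest and the highest value. Its log2 fold change was -0.21 (SE 0.53), with differences of 0.69, -0.44 and -0.77 in the 3 pairs, and it was -0.65 without pair 1 and -0.084 without pair 2. Of 3 other genes on a list of atrial markers, 2 were also at their highest in wt pair 3. Myl7, the atrial regulatory light chain, had 50 counts there and 5 to 21 in the other libraries, and Sln, an inhibitor of the atrial calcium pump, had 15 counts there, 2 in the flt3L-/- library of the same date and 0 in the other 4. The remaining marker, Myl4, an atrial and fetal light chain, was at its lowest in wt pair 3, with 2.20 CPM against 2.99 to 3.18 CPM elsewhere, and the ventricular Myl2 lay inside the range of the other libraries there. Summed leukocyte markers were also highest in that library (1131 CPM against 149 to 584 CPM), and their part in the result was not tested.

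**Figure D3:**
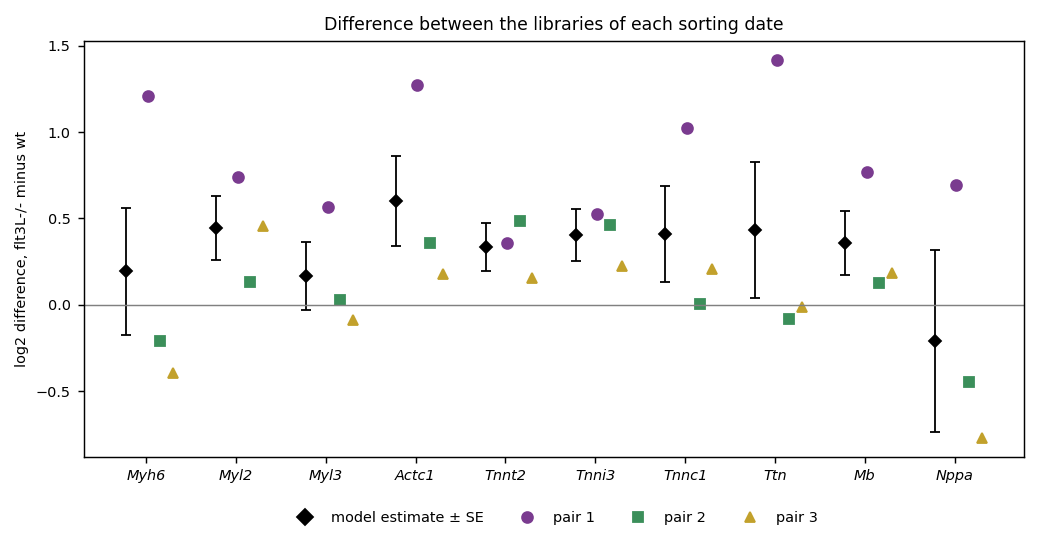
Log2 difference of each of the 10 genes between the library labelled flt3L-/- and the wt library of the same sorting date (circle, square and triangle for pairs 1, 2 and 3), beside the model's log2 fold change with its standard error (black). Differences of pair 1 reach 1.42 (Ttn), while those of pairs 2 and 3 lie between -0.77 (Nppa) and 0.49 (Tnnt2).

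The 10 genes shared their lowest library but not their highest. For 10 of the 10 genes the lowest of the 6 values was in wt pair 1, where their median deviation from the gene's own mean was -0.64 on the log2 scale, from -1.05 to -0.28. The highest values were spread over libraries, with 5 genes at their top in the flt3L-/- library of pair 2, 3 in that of pair 1, 1 in that of pair 3 and 1 in wt pair 3. Leaving out pair 1 brought the median log2 fold change of the 10 genes to 0.13, whereas it was 0.42 when pair 2 and 0.50 when pair 3 was left out. Over the 45 pairs of members, the Pearson correlation of log2 CPM across the 6 libraries had a median of 0.65, and over the 5 libraries other than wt pair 1, an alternative added with the values known, the median was -0.032, with values from -0.88 to 0.95. The median correlation thus turned on that library, while some members still moved together and others in opposite directions without it. The mean of the 10 genes holds each gene itself, which raises the correlation of a gene with that mean. Over those 5 libraries this correlation was 0.89 for Tnnt2, 0.82 for Tnni3, 0.76 for Tnnc1 and 0.75 for Mb. It was 0.59 for Actc1, 0.40 for Ttn, 0.39 for Myl3, 0.11 for Myl2 and 0.072 for Myh6, and Nppa stood at -0.96.

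Other cell types moved in wt pair 1 too. Summed erythroid markers (alpha and beta globins and Alas2) were at their lowest there, with 243 CPM against 364 to 491 CPM in the other 5 libraries, and summed fibroblast markers were at their highest, with 41599 CPM against 9737 to 31516 CPM. Summed mural markers (pericytes and smooth muscle) were also highest there, with 901 CPM against 274 to 554 CPM. The endothelial sum (8048 CPM against 8555 to 12573 CPM) and the sum of mitochondrial messages (4403 CPM against 5309 to 17226 CPM) were lowest. In that last sum, mt-Co2, mt-Co3, mt-Atp6 and mt-Atp8 had almost no reads. In every library the erythroid sum was between 1.55 and 1.99 times the sum of the 10 genes, so the ratio moved 1.28-fold while the sums moved 2.02-fold and 1.87-fold. The ratio of the fibroblast sum to the 10 genes moved 6.73-fold and that of the endothelial sum 1.76-fold. Of the 5 erythroid genes, 0 were called, and of the 7 fibroblast genes 0 were called and 3 were lower in each of 3 pairs, against 11.5% of all genes. The part of these cell types in the low values of the 10 genes was not tested.

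**Figure D4:**
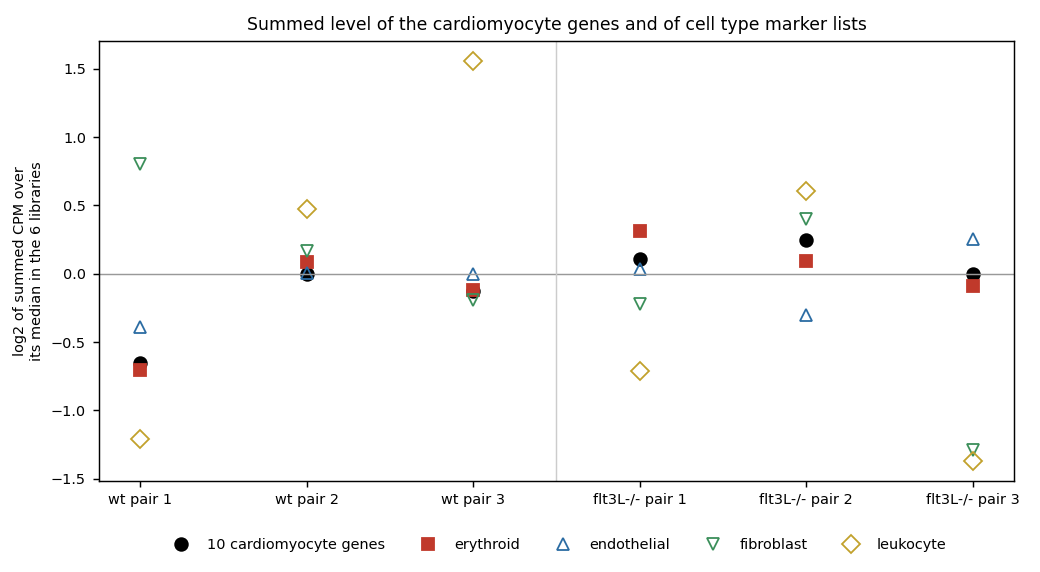
Summed CPM of the 10 cardiomyocyte genes and of 4 marker lists in each library, as the log2 ratio to the list's own median over the 6 libraries, with wt at the left and flt3L-/- at the right. The 10 genes (black circles) and the erythroid markers (red squares) lie close together in each library and are lowest in wt pair 1, while the fibroblast markers (green triangles) are highest there.

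For most of the 10 genes, the share within the group was steadier than the level. As a share of the summed CPM per kb of the 10 genes in a library, Mb was 26.2%, 28.9% and 25.8% in the wt libraries of pairs 1, 2 and 3 and 25.4%, 27.3% and 26.3% in the libraries labelled flt3L-/-. The coefficient of variation of Mb was 4.79% for this share and 21.9% for its CPM. For Tnnc1 the same figures were 8.67% and 21.7%, for Myl3 9.26% and 18.1%, and for Tnni3 10.7% and 23.3%. The share was little steadier than the CPM for Nppa (57.2% against 57.5%), Myh6 (33.0% against 36.0%) and Tnnt2 (18.8% against 22.7%). The share of Tnnt2 was highest in wt pair 1 (8.83%), where its CPM was lowest. The share of Actc1 was 14.04% in wt pair 1 and 17.1% to 20.4% in the other 5 libraries. Shares of a sum are tied to each other, and Mb, as the largest term, moves the sum itself.

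Within each library, Myh6, Tnni3, Actc1 and Myl2 were ahead per kb of the related genes Myh7, Tnni1, Acta1 and Myl7. Per kb, Myh6 was 6.80 to 13.0 times the level of Myh7, the slow myosin of the fetal heart and of slow muscle. Tnni3 was 46.3 to 280 times the level of Tnni1, its slow skeletal and fetal partner, a ratio that rests on 6 to 26 counts of Tnni1 per library. Actc1 was 4.36 to 8.68 times Acta1, the skeletal actin. The ventricular Myl2 was 2.91 to 18.2 times the atrial Myl7, with the lowest ratio in wt pair 3, where Myl7 was high. Other related genes went both ways. In mean CPM per kb, Actb (470) and Actg1 (206) lay above Actc1 (18.2), and Acta2 (14.7) lay below it. Myl6 (63.1) lay above Myl3 (8.59), and Myl9 (17.6) above Myl2 (9.37).

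Some of these counts cannot be assigned to 1 gene with certainty, since the libraries were unstranded and reads with several hits were kept. Of the words of 81 bases, the read length, in the coding transcripts of Myh6, 13.9% also occur in Myh7, which lies next to it on chromosome 14. The coding sequences of Myh6 and Myh7 are 91.65% identical, and the longest run they share, of 245 bases, is shown because a read from within it could come from either gene. It covers coding bases 4246 to 4490 of Myh6, on the minus strand of 2 exons within chr14:54948327-54948725, and coding bases 4240 to 4484 of Myh7, in 2 exons within chr14:54974947-54975347, and was read from GENCODE transcripts of GRCm38.
Myh6 and Myh7: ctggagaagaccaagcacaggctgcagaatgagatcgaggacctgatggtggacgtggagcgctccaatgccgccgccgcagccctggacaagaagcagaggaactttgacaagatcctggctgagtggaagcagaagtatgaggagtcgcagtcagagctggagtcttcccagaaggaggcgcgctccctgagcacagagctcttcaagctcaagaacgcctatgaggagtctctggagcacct

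Actc1, Tnnt2, Myl2 and Tnnc1 shared no such word with another gene, and Actc1 and the skeletal Acta1, 86.16% identical over their coding sequences, shared no run of 30 bases. Nppa shared 47.6% of its words with Gm13054, which overlaps 61.5% of its exon bases and was itself given 10 to 43 counts per library, 68.3% to 97.1% of the counts of Nppa. For Mb, 31.9% of the exon bases are shared with Apol6 and Gm49540, of which Apol6 had 15 to 114 counts. The shared words, 22.1% of those of Mb, all occur in Gm49540, whose counts are not given. Myl3 overlaps Pth1r, which had 893 to 1663 counts per library, more than Myl3 itself, over 4.65% of the exon bases of Myl3. Values of Nppa, and in part of Mb and Myh6, are therefore uncertain.

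The sequence around the transcript start was searched in the promoters that RefSeq gives for the 10 genes on GRCm38.p6. These are windows of 300 bases from 250 before to 50 after the start. For 9 genes, with 12 promoters in all, the last 30 bases of the window occurred in a GENCODE transcript of the gene. That does not show that the starts themselves agree. The windows of the 2 starts of Myl2 failed this check and are left out. Letters were searched on both strands. The M-CAT letters CATTCC, bound by TEAD factors, were found in 5 of the 12 promoters (1 each of Tnnt2, Myh6, Myl3, Tnnc1 and Ttn), where 14.66% of all 32851 promoters hold them. The serum response element, bound by SRF, was found in 2 of 12 (Actc1 and Myl3), against 1.629% of all promoters, and the MEF2 site in 1 (Ttn), against 3.187%. The letters TATAAA were found in 3 of 12 (Actc1, Myh6 and Nppa), against 13.62%, and the GATA letters AGATAA in 1 (Tnnt2), against 11.18%. Among the matches after the start were TATAAA of Actc1 (bases 34 to 39) and Myh6 (2 to 7) and M-CAT of Ttn (12 to 17). The E-box letters CANNTG were found in 12 of 12, against 72.31% of all promoters. E-boxes and serum response elements read the same pattern on both strands and were counted once. In the 4 sequences printed, no match overlapped another. These matches are descriptions of the letters and not of binding in these cells.

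The 250 bases before the start are given for Actc1, Myl3, Tnnc1 and Nppa. Over 6 libraries, Actc1, Myl3 and Tnnc1 were among the members whose levels lay closest to those of the others. Their median correlation with the other 9 was 0.86, 0.85 and 0.83. That of Nppa was lower (0.44), and that of Myh6, not printed here, was lower still (0.26). These values rest in part on wt pair 1. Without that library, the correlation with the mean of the members was 0.59 for Actc1, 0.39 for Myl3, 0.76 for Tnnc1 and -0.96 for Nppa. Each sequence is written from 5' to 3' along the gene, and capitals mark a match to any of the searched motifs on either strand. The promoter of Actc1 is chr2:114052876-114053125 on the minus strand, with the serum response element at -47 to -38. That of Myl3 is chr9:110763428-110763677 on the plus strand, with an E-box, 2 M-CAT matches (GGAATG is CATTCC on the other strand) and the serum response element at -85 to -76. That of Tnnc1 is chr14:31208062-31208311 on the plus strand, with 2 E-boxes and an M-CAT match at -58 to -53. That of Nppa is chr4:148000472-148000721 on the plus strand, with 2 E-boxes and TATAAA at -9 to -4.
Actc1: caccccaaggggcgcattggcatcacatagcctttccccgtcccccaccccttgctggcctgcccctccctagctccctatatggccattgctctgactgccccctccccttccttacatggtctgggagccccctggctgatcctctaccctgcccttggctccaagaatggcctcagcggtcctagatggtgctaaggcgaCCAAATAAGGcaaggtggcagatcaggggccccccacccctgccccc
Myl3: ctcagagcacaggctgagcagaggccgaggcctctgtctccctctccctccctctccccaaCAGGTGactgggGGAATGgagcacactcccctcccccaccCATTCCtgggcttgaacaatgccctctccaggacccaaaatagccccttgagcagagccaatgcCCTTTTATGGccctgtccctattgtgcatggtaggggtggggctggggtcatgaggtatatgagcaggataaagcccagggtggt
Tnnc1: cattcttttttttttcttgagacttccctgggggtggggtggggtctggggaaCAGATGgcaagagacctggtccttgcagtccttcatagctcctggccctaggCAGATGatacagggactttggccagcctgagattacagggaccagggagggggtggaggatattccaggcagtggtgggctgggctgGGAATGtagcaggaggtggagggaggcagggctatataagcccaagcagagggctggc
Nppa: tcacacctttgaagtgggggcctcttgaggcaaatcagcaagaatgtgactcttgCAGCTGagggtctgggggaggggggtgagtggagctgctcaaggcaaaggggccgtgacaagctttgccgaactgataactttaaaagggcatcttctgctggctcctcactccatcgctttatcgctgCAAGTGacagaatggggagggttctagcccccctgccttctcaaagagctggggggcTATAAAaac

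The other genes of heart muscle were read from lists by role, which hold 47 genes. Of these, 39 passed the filter, 0 were called by edgeR or by DESeq2 and 0 had an unadjusted p under 0.05, against 3.59% of all genes tested. The log2 fold change was above 0 for 31 and below 0 for 8, with a median of 0.27. In each of 3 pairs 15 were higher, against 14.2% of all genes, and 0 were lower, against 11.5%, and for 9 the libraries labelled flt3L-/- all lay above wt, against 3.53%. Their median difference was 0.71 in pair 1, 0.054 in pair 2 and 0.26 in pair 3, the largest of them again in pair 1, and without pair 1 the median log2 fold change was 0.15. They share the libraries of the 10 genes and are no independent evidence of a direction.

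**Figure D5:**
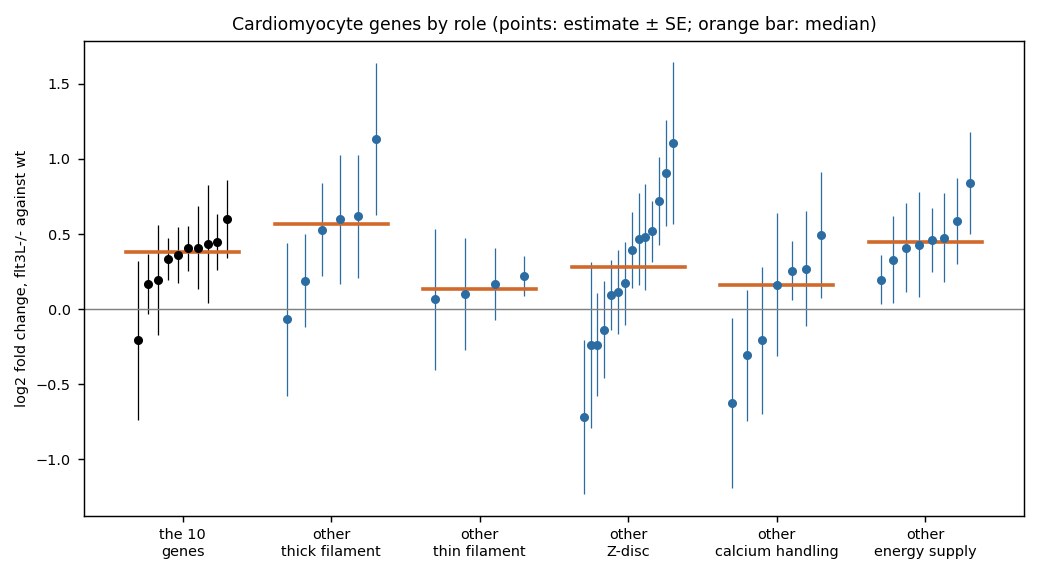
Log2 fold change with standard error of the 10 genes (black) and of the 39 tested genes of the other lists (blue) by role, each list with its median as an orange bar. Medians lie between 0.13 (other thin filament genes) and 0.56 (other thick filament genes), and 0 genes shown were called.

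By role, 5 of 6 tested genes of the thick filament list had a log2 fold change above 0, with a median of 0.56. Mybpc3, the myosin-binding protein C of the heart, had 4.90, 8.73 and 11.7 CPM in the wt pools and 14.8, 12.9 and 9.54 CPM in those labelled flt3L-/-, so that its direction turned in pair 3. Myom2, which crosslinks thick filaments, had the highest log2 fold change of these lists (1.13, SE 0.50). It had 1.63, 0.970 and 1.49 CPM in the wt pools and 4.44, 3.65 and 1.504 CPM in those labelled flt3L-/-. The 4 tested genes of the thin filament list had a median of 0.13. Among them Tpm1, which non-muscle cells also express, had 269, 266 and 273 CPM in the wt pools and 296, 294 and 355 CPM in those labelled flt3L-/- (log2 fold change 0.22, SE 0.13).

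Of 14 genes of the Z-disc, which anchors thin filaments, 10 had a log2 fold change above 0 and 6 were higher in each of 3 pairs, against 14.2% of all genes. Actn2, the actin crosslinker of the Z-disc, had 5.29, 7.84 and 5.25 CPM in the wt pools and 9.54, 8.57 and 11.8 CPM in those labelled flt3L-/- (log2 fold change 0.72, SE 0.29). Des, the intermediate filament around it, had 13.0, 18.9 and 15.4 CPM and 24.1, 21.05 and 21.8 CPM (log2 fold change 0.52, SE 0.20, unadjusted p = 0.0515 in edgeR's quasi-likelihood test, the smallest of these lists). In both genes the groups did not overlap, and smooth muscle cells also express Des. Xirp1 had the lowest value of the Z-disc list, a log2 fold change of -0.72 (SE 0.51).

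The 8 genes of energy supply all had a log2 fold change above 0, with a median of 0.44, and 5 were higher in each of 3 pairs, against 14.2% of all genes. Ckm, the muscle creatine kinase, had 6.03, 13.7 and 11.1 CPM in the wt pools and 18.2, 14.3 and 20.3 CPM in those labelled flt3L-/- (log2 fold change 0.84, SE 0.34). Fabp3, the fatty acid carrier of muscle, gave 0.46 (SE 0.21) and Cox6a2, a muscle subunit of cytochrome oxidase, 0.59 (SE 0.28). Messages of the mitochondrial genome, which every cell makes, were higher in each of 3 pairs for 8 of 9 tested genes, also against 14.2%, and their part in the result was not tested.

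Of 10 genes of calcium handling 7 were tested, with 4 above and 3 below 0 and a median of 0.16. Pln, the regulator of the calcium pump, ranged from 24.8 to 39.2 CPM with a log2 fold change of 0.26 (SE 0.20). Both genes of the natriuretic list, the peptide gene Nppb and Corin, stayed under the filter, with 6 to 14 counts of Nppb per library.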

How the data were processed

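RNA-seq libraries were made with the SMART-Seq v4 kit, which does not mark strand, from polyA RNA of the 6 sorts. The authors deposited raw counts of reads per gene. Per the labels and the methods of the study, STAR 2.5.2a mapped single reads of 81 bases to mm10, with at most 10 hits per read, and QuasR 1.18.0 counted a read where it began in an exon of Ensembl release 88.

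From these counts, protein-coding genes with a CPM over 1 in at least 2 libraries were tested in edgeR 4.0.16 (R 4.3.3) with TMM factors, glmQLFit and glmQLFTest with legacy = TRUE, the sorting date as a covariate and Benjamini-Hochberg adjustment over the 13475 genes. The script was tested on simulated data. Within-pair log2 differences used a prior count of 2, and intervals are 95% Poisson intervals. Symbols, exons, biotypes and transcripts came from GENCODE release 21 of the mouse, which held 50376 of the 50600 genes. The study's methods say that the sorts were made in pairs, and the labels give each pair 1 date. After removal of the group means, libraries of the same date correlated across genes with r of 0.180, 0.104 and 0.116, and libraries of different dates with r of -0.354 to 0.247, so the pairing rests on the dates and not on these values. No library was a copy of another, since chi-square per degree of freedom between libraries was 54.6 or more.

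The 10 genes, the lists by role, the marker lists and the tests were chosen with earlier results of these data known. The named genes are the 10, those of the lists, Flt3l and the 10 genes most like them. Likeness is the Pearson correlation over the 6 libraries with the mean of the 10 standardised log2 CPM values. Genes that overlap the 10 or share words with them are also named. Alternatives were 3 other normalizations, DESeq2 1.42.0, legacy = FALSE, 2 other filters, all biotypes, no replicate block and each pair left out. Protein sequences were not used here, and 1 gene of the marker lists is not reported here.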

Additional observations from a re-analysis of the deposited data

How the results depend on the processing

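No gene among the 10 and none of the other cardiomyocyte genes was called under any of 12 alternatives. DESeq2 in place of edgeR called 21 genes in all, none of them in these lists. Without the replicate block, which ignores the pairing by date, 262 genes and 0 of the 10 had an unadjusted p under 0.05. That count over the 10 was also 0 with library size only and without any 1 pair, and it was 2 with no filter on low counts. Over all genes it was 980 without pair 2 and 249 without pair 3. Leaving out 1 pair gave log2 fold changes of -0.31 to 0.50 for Myh6, -0.030 to 0.30 for Myl3 and -0.048 to 0.69 for Ttn, each of them negative without pair 1, where fewer samples remained and the lowest library was gone. The other 128 fold changes of the 10 genes and Flt3l under alternatives kept their direction, and Nppa has no value without pair 3, where it fell under the filter. The adjusted p of the 10 genes lay between 0.682 and 0.9998. With the longest transcript as the length, the level per kb moved beyond the spread for 6 of the 10 genes. Depth limits Nppa most, with 12 to 63 counts per library.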

Other observations

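The 10 non-member genes whose levels were most like those of the 10 genes over the 6 libraries were Dennd6b (r of 0.992), Cmc1 (0.991), Wdr24 (0.986), 1700037H04Rik (0.985), Gm3248 (0.984), Atp6v1b2 (0.983), Chn2 (0.975), Tcn2 (0.973), Cox6a2 (0.971) and Ankrd23 (0.970). All of them share with the 10 genes the low values of wt pair 1. Without that library the correlations of these genes lay at 0.949 for Dennd6b, 0.916 for Cmc1 and 0.364 for Tcn2, and at 0.628 to 0.882 for the other 7. Their log2 CPM spanned as little as 0.25 over the 6 libraries (Atp6v1b2) and as much as 1.91 (Gm3248). Of the 13465 genes compared, 94 (0.698%) had an r of 0.9 or more, and of the 39 tested genes of the other cardiomyocyte lists 7 did (Cox6a2, Csrp3, Fabp3, Mybpc3, Myh7, Ckmt2 and Myoz2). The beta globin Hbb-bt stood at 0.957 and the alpha globin Hba-a1 at 0.930. Without wt pair 1 those 7 cardiomyocyte genes lay between -0.12 (Myoz2) and 0.71 (Csrp3), Hbb-bt at 0.57 and Hba-a1 at 0.67.

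Atp2a2, the calcium pump of the sarcoplasmic reticulum that other cells also express, went its own way. The wt libraries of pairs 1, 2 and 3 gave 264, 237 and 62.1 CPM and their partners 379, 81.01 and 64.6 CPM. The highest 3 values belonged to both libraries of pair 1 and to wt pair 2, whereas its regulator Pln ranged from 24.8 to 39.2 CPM. The difference within pair 2 was -1.55 on the log2 scale, against 0.52 in pair 1 and 0.056 in pair 3. Xirp1 had 103, 61 and 6 counts in wt and 46, 28 and 8 counts in the libraries labelled flt3L-/-, so both libraries of pair 3, sorted a year after the others, were the lowest.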
